A study of Mus musculus with 4 samples.

Results

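The replication-dependent histone genes were followed here, 54 genes of the 41388 listed in the count tables. They were chosen by name and by count: protein-coding genes whose GENCODE M21 symbol starts with Hist1h, Hist2h, Hist3h or Hist4h, with at least 50 counts summed over all libraries. Of 64 protein-coding genes with such a symbol, 54 reached that count and all 54 passed the low-count filter of the test. They comprised 5 linker histone H1 genes, 14 H2A genes, 13 H2B genes, 10 H3 genes and 12 H4 genes. Just inside the count minimum was Hist1h2aa with 88 counts, and just outside it was Hist1h1t with 17. The other 9 genes left out had 3 counts or fewer, 7 of them 0, and between 78.5 and 100% of their 75-base stretches were found in another gene as well.

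The samples were total RNA of Mnk3 cells, a mouse cell line used as a model of group 3 innate lymphoid cells, sequenced after removal of ribosomal RNA. In the control group the cells were left untreated. The stimulated group was given 2 cytokines, IL-1b and IL-23, both at 10 ng/ml, over about 16 h. Each group had 2 libraries, of which 1 carries "rep1" in its title and 1 carries no number, and these are called the rep1 and the unnumbered library below. The labels name no genetic change and do not say whether each library had a culture of its own. The p-values below therefore rest on the spread among 4 libraries, and that spread may be technical.

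Replication-dependent histone genes encode the proteins that package new DNA during S phase: the core histones H2A, H2B, H3 and H4, which form the nucleosome, and H1, which binds the DNA between nucleosomes. They lie in clusters, mostly lack introns, and their messenger RNAs end in a conserved stem-loop in place of a poly(A) tail. Stem-loop binding protein holds that end, and the messages are made and degraded in step with DNA synthesis. Libraries made without poly(A) selection, as here, can hold such messages.

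The stem-loop is the feature that sets these messages apart from most others, and the forms found in the annotated transcripts are shown first. The motif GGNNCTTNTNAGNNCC, with inner bases able to pair, was searched on the sense strand of GENCODE M21 transcripts. It was found in 37 of the 54 members, against 55 of 21901 protein-coding genes (0.251%) and 61 of 55450 genes of all types (0.11%). Both totals include the members and histone cluster genes under the count minimum, such as Hist1h1t. Below are 9 members that between them carry every form found, as DNA letters 5′ to 3′, with the stem and loop in capitals and 5 flanking bases on either side in lower case.
Hist1h1e: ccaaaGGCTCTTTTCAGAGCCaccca
Hist1h2ab: acaaaGGCTCTTTTCAGAGCCaccca
Hist2h2ac: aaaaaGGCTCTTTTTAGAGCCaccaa
Hist1h2bk: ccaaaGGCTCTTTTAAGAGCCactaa
Hist1h3g: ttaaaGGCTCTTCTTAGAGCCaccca
Hist1h4d: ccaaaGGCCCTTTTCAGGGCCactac
Hist1h4a: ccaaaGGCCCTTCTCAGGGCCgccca
Hist1h4i: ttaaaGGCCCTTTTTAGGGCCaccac
Hist1h4b: caaaaGGTCCTTTTCAGGACCactca

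The most frequent form, that of Hist1h1e and Hist1h2ab, was found in 19 members of the H1, H2A, H2B and H3 classes. The form of Hist1h2bk was found in 5 H2B and H3 members. The H4 genes carried other stems: the inner stem bases were CC in 9 H4 members and TC in 2, and CT in each match of the 3 H1, 7 H2A, 8 H2B and 8 H3 members. In 17 members the annotated transcript ended within 100 bases after the stem-loop, and over all matches the stretch after it ranged from 11 to 4884 bases. The other 17 members, among them Hist1h1a, Hist1h2ah and Hist2h2be, had no match in their annotated transcripts. Several of them are listed as short genes, such as Hist1h4k with 312 bases and Hist1h2bl with 381, while Hist2h2be is listed with 2620. A transcript annotated without its 3′ end gives no match, so a missing match does not show that the message lacks the stem-loop.

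Among genes that are not members, 7 tested genes held the motif, and H2afx was the histone gene among them. H2afx encodes H2A.X, the variant phosphorylated at DNA breaks. It was at 1080 CPM (the count relative to the library total, scaled by TMM) in the rep1 control, 369 in the unnumbered control, 1960 in the rep1 stimulated library and 904 in the unnumbered one.

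The libraries held between 23047723 and 29078765 counts. All 20 ILC3 marker genes were at 1 CPM or more in every library, with summed levels between 5500 and 7560 CPM. Single markers still changed. In stimulated cells 5 were called higher and 10 lower (edgeR adjusted p under 0.05), as were 17.5% and 18.3% of all genes tested. Their median log2 fold change was -1.075, from -4.07 to 8.81. Markers of other cells were mostly low: 4 of 12 T cell genes, 1 of 8 B cell genes and 1 of 10 myeloid genes were at 1 CPM or more in all libraries, as were 0 of 8 stromal, 0 of 8 epithelial and 0 of 7 erythroid genes. Among the defining genes, Cd8b1, Lyz2, Cd14, S100a8, S100a9, Elane, Hbb-bs, Hbb-bt and Hba-a2 were at 0 throughout. The summed myeloid list was at 2.75 and 4.2 CPM in controls against 4.35 and 11.9 in stimulated libraries. Of 4 myeloid genes tested 1 was called higher, and the highest log2 fold change among them was 7.015. The summed T cell list was at 227 and 186 CPM in controls against 51.5 and 58.3 in stimulated libraries, and the summed stromal list was 7.63 and 8.6 CPM in controls against 85.5 and 32.8, nearly all of it from Lum. The highest T cell genes were Trbc1, at 146 and 105 CPM in controls and 17.0 and 25.2 CPM in stimulated libraries, and Trbc2, at 42.6 and 32.8 against 5.06 and 7.52. Their part in the results below was not tested.

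Most histone genes were higher in stimulated cells within each kind of library title, but the libraries of a group differed from each other by more than the groups did. Of 54 members, 48 were higher in stimulated than in control cells in both the rep1 and the unnumbered libraries, as were 41.3% of all 13838 genes tested, and 2 were lower in both, as were 43.1%. Only 1 member, Hist1h2ah, was called higher at an adjusted p under 0.05 (edgeR quasi-likelihood test, Benjamini-Hochberg over all genes tested), and 1, Hist2h2be, was called lower. Over all genes tested 17.5% were called higher and 18.3% lower, 35.8% in all. The median log2 fold change was 0.63 over members, from -1.06 to 3.23, and -0.02 over all genes tested. In bulk RNA, a different number of cells making histone messages and a different amount of message per cell cannot be told apart.

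The summed share of all counts showed the order of the libraries. The members took 0.953% of counts in the rep1 control (95% Wilson interval 0.949 to 0.9561) and 0.310% in the unnumbered control (0.3077 to 0.3117). They took 1.19% in the rep1 stimulated library (1.186 to 1.195) and 0.706% in the unnumbered one (0.7023 to 0.7092). The groups overlapped, since the rep1 control stood above the unnumbered stimulated library. Intervals cover counting error only. The stimulated library was 1.25 times its control among rep1 libraries and 2.28 times among unnumbered ones, while the rep1 library was 3.08 times the unnumbered one in controls and 1.69 times in stimulated cells. The group means were 0.631% ± 0.455 in controls and 0.948% ± 0.343 in stimulated cells (SD, n = 2 each), with p = 0.667 in a two-sided exact permutation test, whose smallest possible p with 2 against 2 libraries is 0.333.

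**Figure D1:**
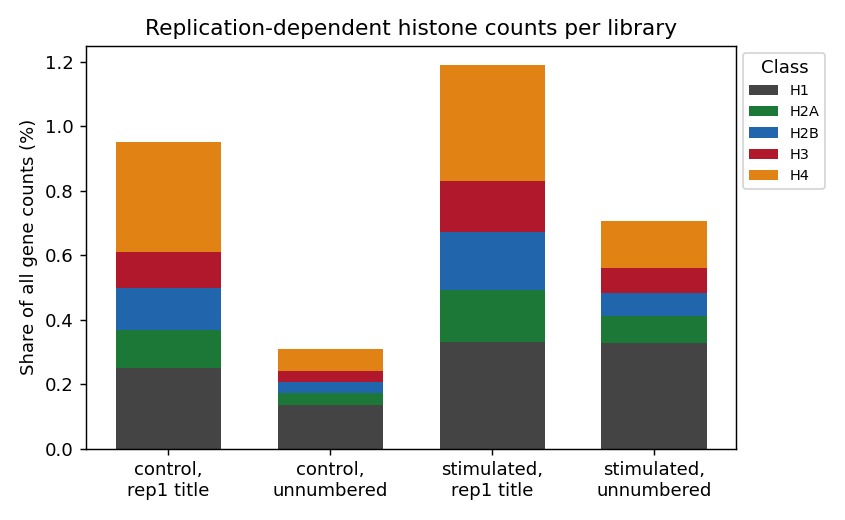
Share of all gene counts (%, vertical axis) taken by the 54 replication-dependent histone genes in each of the 4 libraries, stacked by class. The order from high to low was rep1 stimulated (1.19%), rep1 control (0.953%), unnumbered stimulated (0.706%) and unnumbered control (0.310%), and H4 and H1 were the broadest bands.

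Classes did not share this pattern equally. H1 genes took 0.250% and 0.135% of counts in the rep1 and unnumbered controls and 0.331% and 0.328% in the stimulated libraries, so both stimulated libraries were above both controls (exact permutation p = 0.333, the smallest possible). H4 genes took 0.341% and 0.069% in controls and 0.359% and 0.145% in stimulated libraries, so the groups overlapped widely. The rep1 stimulated library was only 1.05 times its control for H4, against 1.33 times for H1, 1.38 times for H2A and H3 and 1.39 times for H2B. Among unnumbered libraries these ratios were 2.10 for H4 and H2B, 2.23 for H3, 2.28 for H2A and 2.43 for H1. The difference between classes was not tested.

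On the log2 scale of CPM (prior count 2), the median stimulated-minus-control difference of members was 0.47 among rep1 libraries (range -0.84 to 3.27) and 1.14 among unnumbered libraries (-1.33 to 3.41). The unnumbered difference was the larger in 50 of 54 members. Over all genes tested the corresponding medians were -0.02 and -0.01. Where the groups did not overlap, both stimulated libraries were above both controls in 11 members and below in 2, while 34.4% and 36.3% of all genes tested did so. The 11 members are a smaller share than that background.

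**Figure D2:**
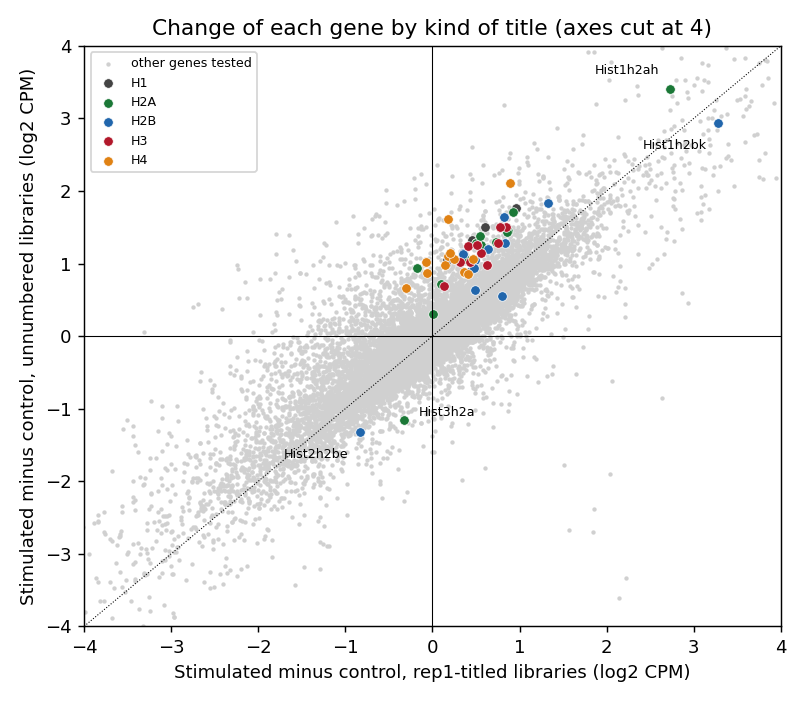
Stimulated minus control difference (log2 CPM) of each gene in the rep1 libraries (horizontal axis) and in the unnumbered libraries (vertical axis), with other tested genes in grey, members coloured by class, and a dotted line of equality. Most members lie above 0 on both axes and above the line, with medians of 0.47 and 1.14, and Hist1h2ah, Hist1h2bk, Hist2h2be and Hist3h2a stand apart from the others.

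The difference between libraries of the same group was itself a feature of the histone genes. The rep1 library exceeded the unnumbered one by a median of 1.80 on the log2 scale in controls (0.10 to 2.96) and of 1.17 in stimulated cells (-0.39 to 2.45), against -0.004 in both groups over all genes tested. The rep1 library was higher by at least 1 on the log2 scale in both groups in 31 of 54 members, as were 0.961% of all genes tested. By class the medians in controls and stimulated cells were 0.93 and 0.04 for H1, 1.66 and 0.98 for H2A, 1.90 and 1.503 for H2B, 1.59 and 0.99 for H3, and 2.26 and 1.37 for H4. None of the 5 H1 members was among the 31, which were 7 H2A, 11 H2B, 4 H3 and 9 H4 genes. Members with the stem-loop motif had a median of 1.82 in controls and those without a match 1.42. A match can be missing because the annotated transcript is short, but Hist2h2be, listed with 2620 bases, also had none. Whether these are different kinds of message was not tested.

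Other short or non-polyadenylated RNAs were set beside this difference. Protein-coding genes that are not members had medians of 0.42 in controls and -0.03 in stimulated cells when under 500 bases (37 genes), and of 0.25 and 0.07 at 500 to under 1000 bases (368 genes). The 78 ribosomal protein genes had medians of 0.35 and 0.12. Rn7sk, the 7SK RNA that regulates transcription elongation, was at 11500 and 2420 CPM in the rep1 and unnumbered controls and at 4640 and 2670 CPM in the stimulated libraries. Rpph1, the RNA of ribonuclease P, was at 1730 and 400 CPM in controls and at 857 and 801 CPM in stimulated libraries. Both were highest in the rep1 control, while the histone share was highest in the rep1 stimulated library. Rmrp was at 458 and 208 CPM in controls and at 259 and 297 CPM in stimulated libraries. Malat1 was at 2010 and 1780 CPM against 1510 and 2500. For both of these the rep1 library was the higher in controls and the lower in stimulated cells. Other RNA types did not keep a rep1 excess in stimulated cells. The 119 snoRNA genes had medians of 0.21 in controls and -0.29 in stimulated cells, and the 23 snRNA genes 0.06 and -0.51. Medians were 0.99 and -0.23 for 12 scaRNA genes, and 0.785 and -0.55 for 33 genes typed as misc_RNA. The part of these RNAs in the histone result was not tested.

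**Figure D3:**
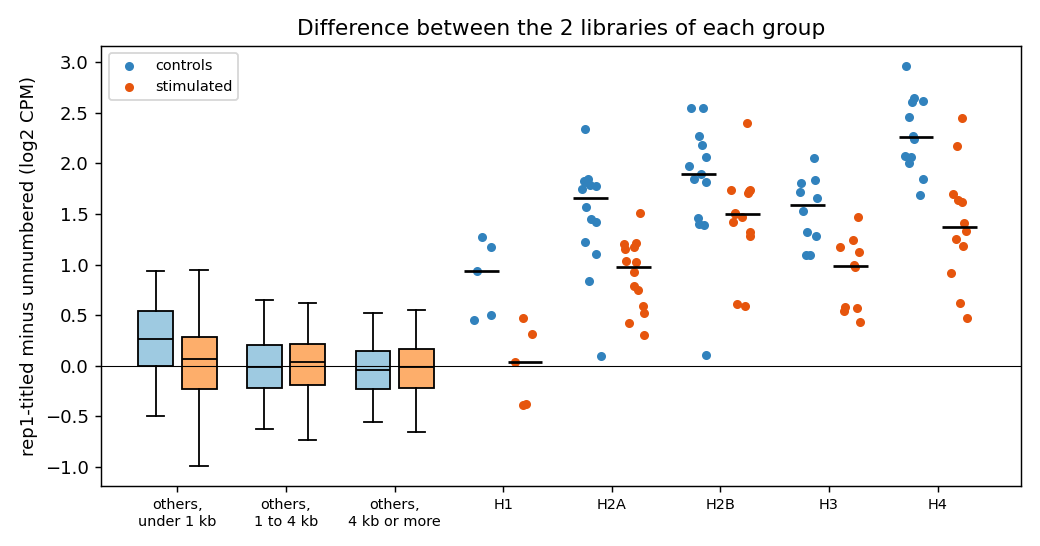
Rep1 minus unnumbered difference (log2 CPM, vertical axis) within controls (blue) and within stimulated cells (orange), for other protein-coding genes by length (boxes with median and quartiles, whiskers from the 5th to the 95th percentile) and for each histone member by class (points, with the median as a bar). Core histone medians lie between 0.98 and 2.26, while those of H1 are 0.93 in controls and 0.04 in stimulated cells.

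Linker histone genes were among the most abundant members. Per kilobase of listed length, H1 genes averaged from 338 CPM (Hist1h1c) to 1130 CPM (Hist1h1a), and Hist1h1a was the highest of them in all 4 libraries. Hist1h1a, encoding H1.1, was at 612 and 252 CPM in the rep1 and unnumbered controls and at 1190 and 857 CPM in the stimulated libraries. Both stimulated libraries lay above both controls, and its log2 fold change of 1.24 ± 0.47 (SE) had an adjusted p of 0.106 in edgeR. Hist1h1e, encoding H1.4, was at 449 and 235 CPM in controls and at 683 and 665 CPM in stimulated libraries. It was again higher in both stimulated libraries, by 0.98 ± 0.30 on the log2 scale, with an edgeR adjusted p of 0.0512.

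The remaining linker genes kept the same order with smaller differences. Hist1h1b (H1.5) was at 500 and 221 CPM in controls and at 687 and 552 CPM in stimulated libraries, with an edgeR adjusted p of 0.207. Hist1h1c (H1.2) was at 490 and 358 CPM against 546 and 716, with an adjusted p of 0.0787, and Hist1h1d (H1.3) at 357 and 251 CPM against 402 and 521, with an adjusted p of 0.074. All 5 H1 genes were thus higher in both stimulated libraries than in both controls and none passed the threshold. For Hist1h1c and Hist1h1d the unnumbered stimulated library was above the rep1 one, the reverse of their controls. Without the rep1 control, Hist1h1e was called higher (1.52 on the log2 scale, edgeR adjusted p = 0.000451), as were the other H1 genes. Over 13 alternatives in scaling, filter, test or libraries its adjusted p ranged from 3.74e-07, without the low-count filter, to 0.189, with 6 calls.

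H2A genes ranged in level from 0.491 CPM per kilobase for Hist3h2a to 520 for Hist1h2ak, and Hist1h2ak, Hist1h2ab and Hist2h2ac together held 59.8% of H2A counts. Hist1h2ak was at 257 and 50.9 CPM in controls and at 377 and 133 CPM in stimulated libraries, and Hist1h2ab at 260 and 95.3 against 385 and 228. In both, the unnumbered stimulated library fell below the rep1 control, so the groups overlapped. Hist2h2ac was at 163 and 47.2 CPM against 295 and 128, with the same overlap. The log2 fold changes of these genes were 0.73 ± 1.14, 0.79 ± 0.61 and 1.01 ± 0.86 (SE), none of them called.

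Hist1h2ah was the member called higher. It had 39 and 9 counts in the rep1 and unnumbered controls and 227 and 91 in the stimulated libraries, or 1.29 and 0.307 CPM against 8.98 and 3.98. Both stimulated libraries were above both controls, and the log2 fold change was 3.01 ± 0.74 (SE, edgeR adjusted p = 0.0309). It is a low-level gene, at 8.99 CPM per kilobase, and 90% of its 75-base stretches were found in another gene, so its counts are uncertain where reads could be split among copies. Without the rep1 stimulated library the value was 2.30 with an edgeR adjusted p of 0.092, and without the rep1 control it was 4.38 with an adjusted p of 0.00305. The call held under 12 of 13 alternatives in scaling, filter, test or libraries, the lowest adjusted p being 3.81e-13 without the low-count filter. Its gene, listed at chromosome 13, 22035164 to 22035568 on the minus strand, is a single exon.

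Among the H2A genes at the ends of the range, Hist1h2ac was at 70.2 and 23.7 CPM in controls and 133 and 77.3 CPM in stimulated libraries. Both stimulated values were above the controls, the higher control by a small margin, and the adjusted p was 0.280. Hist1h2af was at 98.8 and 55.4 CPM against 98.9 and 68.8, equal within the rep1 libraries. Hist3h2a had 41 and 37 counts in controls and 27 and 12 in stimulated libraries, lower in stimulated cells in both kinds of title, with a log2 value of -0.71 ± 0.42 and an edgeR adjusted p of 0.236. It shares 708 exonic bases on the same strand with Trim17, which fell by 1.06 on the log2 scale (adjusted p = 0.0322), so its counts are uncertain.

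Hist1h2bb, the highest H2B gene at 730 CPM per kilobase and highest in all 4 libraries, was at 431 and 110 CPM in controls and at 576 and 202 CPM in stimulated libraries. Hist1h2bg was at 271 and 75.4 CPM against 423 and 174. In these genes the rep1 libraries of both groups were above the unnumbered libraries of both groups. Hist1h2bl, with the second lowest value of the class, was at 80.4 and 16.6 CPM against 102 and 36.8, again split by title. Hist1h2bj was at 84.2 and 23.8 CPM against 212 and 84.8, so the stimulated libraries were above the controls by a small margin, with a log2 fold change of 1.46 ± 0.91 and an edgeR adjusted p of 0.323.

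Hist1h2bk had the largest log2 fold change of any member in edgeR over all 4 libraries, and Hist1h2ah the larger one among unnumbered libraries (3.41 against 2.93). Hist1h2bk had 104 and 37 counts in controls and 860 and 232 in stimulated libraries, or 3.45 and 1.26 CPM against 34.0 and 10.1. The groups did not overlap, and the library of each group with rep1 in its title was the higher. The log2 fold change was 3.23 ± 0.88 (SE), with an edgeR adjusted p of 0.0647. The ratio of stimulated to control was 9.87 among rep1 libraries and 8.04 among unnumbered ones. With 1 library left out the log2 value ranged from 2.10 (without the rep1 stimulated library) to 4.12 (without the rep1 control). DESeq2 gave an adjusted p of 0.0059 and limma-voom 0.026, and over 13 alternatives in scaling, filter, test or libraries it ranged from 0.0059 to 0.379, with 7 calls. Of its 75-base stretches, 72.6% were found in another gene.

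Hist2h2be was the member called lower. It is a member by its symbol, and its annotated transcript held no stem-loop match. Whether its message is replication-dependent was not tested. It had 334 and 302 counts in the rep1 and unnumbered controls and 156 and 93 in the stimulated libraries, or 11.1 and 10.3 CPM against 6.17 and 4.07. Its controls lay within 1.07 times of each other, unlike those of most members, and both were above both stimulated libraries. It fell by 1.06 ± 0.26 (SE) on the log2 scale, with an edgeR adjusted p of 0.0206. The adjusted p was 0.0513 without the rep1 control and 0.0928 without the unnumbered stimulated library, with values of -1.01 and -0.77, and the call held under 11 of 13 alternatives in scaling, filter, test or libraries (lowest adjusted p 0.000564, without the low-count filter). None of its 75-base stretches was found in another gene. Its listed gene, 2620 bases long on chromosome 3, 96221119 to 96223738, is longer than most members, and at 3.02 CPM per kilobase it is a low-level gene.

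H3 genes ranged from 1.66 CPM per kilobase (Hist2h3c2) to 311 (Hist1h3e). Hist1h3e was at 320 and 77.0 CPM in controls and 471 and 170 CPM in stimulated libraries, Hist1h3f at 233 and 73.9 against 394 and 180, and Hist1h3c at 130 and 37.2 against 173 and 88.0. All 10 H3 genes were higher in stimulated cells in both kinds of title, and in 9 of them the groups overlapped. The exception was Hist1h3d, at 44.3 and 20.7 CPM in controls and 79.6 and 58.8 CPM in stimulated libraries, with a log2 fold change of 1.09 ± 0.40 and an edgeR adjusted p of 0.0959. Hist1h3g had the next highest value, 0.98 ± 0.78, and Hist2h3c2 and Hist1h3i the lowest, 0.35 ± 0.45 and 0.56 ± 0.49.

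H4 genes had the widest median gap between the controls, and H2B genes between the stimulated libraries. Hist1h4d had the highest mean level of any member per kilobase of listed length, 1230 CPM. In the unnumbered libraries Hist1h1a was above it, at 393 against 387 CPM per kilobase in controls and 1340 against 811 in stimulated cells. The rank depends on the listed length of Hist1h4d, 393 bases, while its M21 transcript has 1138. Not divided by length, Hist1h1a had the higher means, 432 against 382 CPM in controls and 1020 against 583 CPM in stimulated cells. Hist1h4d was at 611 and 152 CPM in controls and at 846 and 319 CPM in stimulated libraries. Hist1h4k was at 343 and 72.2 CPM against 389 and 155, and Hist1h4f at 373 and 77.0 against 355 and 156. In each, the rep1 libraries of both groups lay above the unnumbered ones. Hist1h4h was at 286 and 46.8 CPM in controls and 232 and 74.3 CPM in stimulated libraries, so it was lower in the rep1 and higher in the unnumbered stimulated library than in their controls. Hist1h4a and Hist1h4f also had rep1 values under 0 on the log2 scale (-0.06 and -0.07), so 9 of 12 H4 genes were higher in stimulated cells among rep1 libraries, and all 12 among unnumbered ones. Hist1h4b had the widest control gap of any member on the log2 scale with a prior count of 2, with 91.9 against 11.7 CPM.

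Hist1h4i was the H4 gene whose groups did not overlap. It was at 55.4 and 17.2 CPM in controls and at 103 and 74.2 CPM in stimulated libraries. Its log2 fold change of 1.29 ± 0.67 had an edgeR adjusted p of 0.238. It is a neighbour of Hist1h2ah and Hist1h2bk.

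Grouped by gaps of over 100 kb, a grouping made after the values were seen, 5 members lay at chromosome 13, 22035164 to 22043676: Hist1h2ah, Hist1h2bk, Hist1h4i, Hist1h2ag and Hist1h2bj. Their median log2 fold change was 1.46 and their lowest 1.03, that of Hist1h2ag, at 34.0 and 10.0 CPM in controls and 62.0 and 27.5 CPM in stimulated libraries. The 12 members at 21715763 to 21832196 of the same chromosome had a median of 0.66, and the 27 at 23531050 to 23764358 had a median of 0.64 and a highest value of 1.24. The nearest tested neighbour outside the histone genes, Zfp184, had 20 and 40 counts in controls and 39 and 41 in stimulated libraries (edgeR adjusted p = 0.225). No test was run on this grouping, and only Hist1h2ah of the 5 was called.

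**Figure D4:**
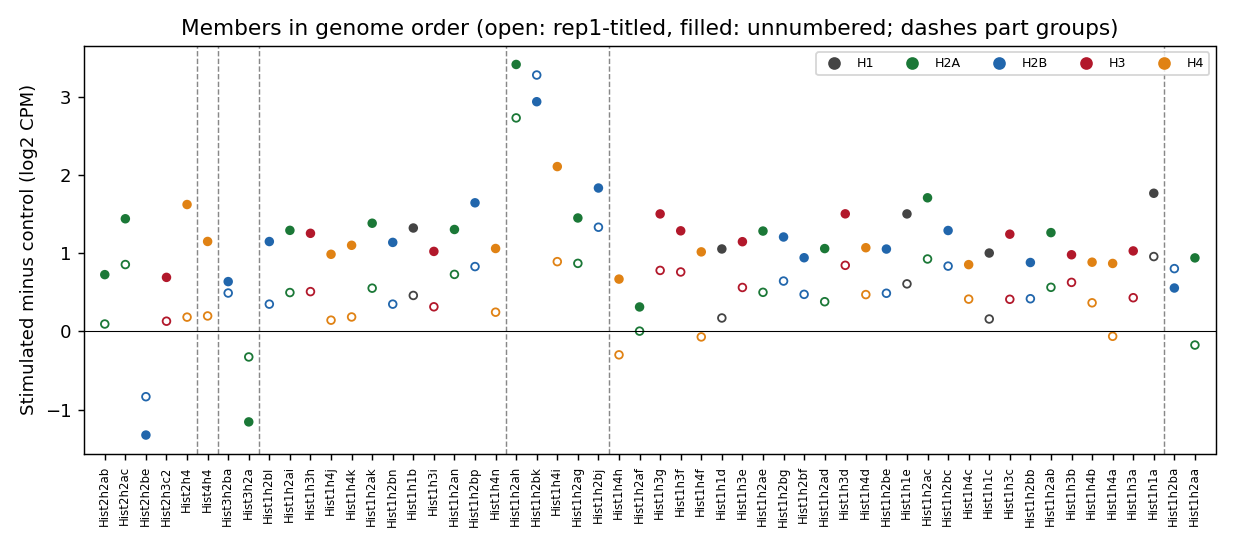
Stimulated minus control difference (log2 CPM, vertical axis) of each member in genome order, with open points for rep1 libraries and filled points for unnumbered ones, coloured by class; dashed lines part groups separated by over 100 kb. The group of Hist1h2ah to Hist1h2bj had a median log2 fold change of 1.46, above the 0.66 and 0.64 of the groups on either side, and Hist2h2be and Hist3h2a lay below 0 in both kinds of title.

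Many H2A and H2B genes lie head to head and share the stretch between them, so each such pair offers 2 readings of the same promoter region. There were 10 pairs whose genes were both members, with 238 to 305 bases between their starts. The log2 fold changes of the partners differed by under 0.5 in 8 pairs, with a median difference of 0.20. Among the 90 combinations of these H2A and H2B genes that are not partners, 56.7% differed by under 0.5, with a median of 0.40. The contrast between partners and other combinations was not tested. Hist1h2ah and Hist1h2bk, at 3.01 and 3.23, differed by 0.22, and Hist1h2ag and Hist1h2bj, at 1.03 and 1.46, by 0.43. Partners could still differ in level: Hist1h2bp was at 14.2 CPM per kilobase and its partner Hist1h2an at 97.8. Hist1h2aa and Hist1h2ba, both low, differed by 0.53.

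The pair that parted was Hist2h2ac and Hist2h2be. Hist2h2ac had a log2 fold change of 1.01 ± 0.86 and was not called, and Hist2h2be fell by 1.06 ± 0.26, a difference of 2.07. In level they were at 304 and 3.02 CPM per kilobase. The difference between partners was not tested.

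**Figure D5:**
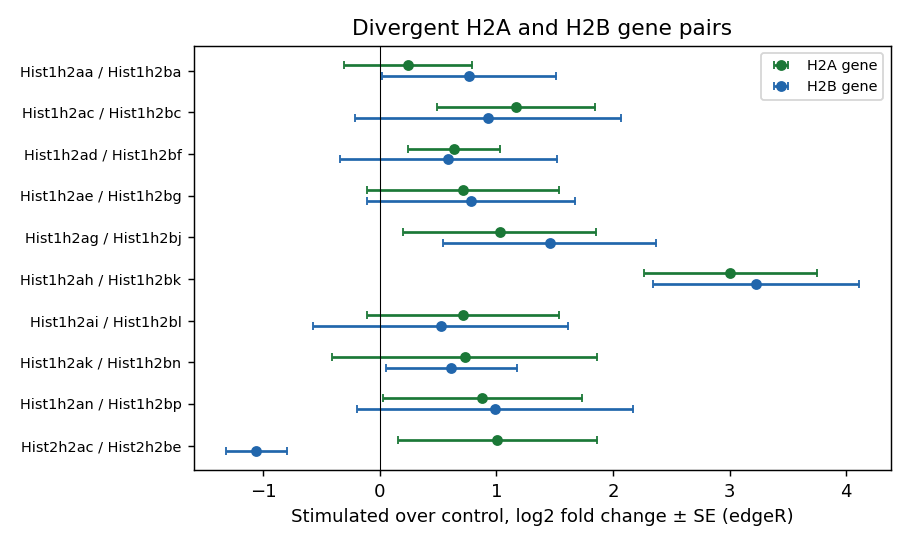
Stimulated over control log2 fold change with its standard error (horizontal axis, edgeR) for the H2A gene (green) and the H2B gene (blue) of each of 10 divergent pairs. Partners lie within 0.5 of each other in 8 pairs, and Hist2h2ac (1.01) and Hist2h2be (-1.06) lie farthest apart.

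The shared stretches of the pair with the highest values and of the pair that parted are printed because they bear on both genes of each pair. They are RefSeq promoter windows on GRCm38.p6, from 250 bases before to 50 after RefSeq's start of the named gene, 5′ to 3′ on that gene's strand. For Hist1h2bk that start differs from the start listed with the counts, 22035870, which is the last base of the window. Capitals mark the CCAAT box (CCAAT or ATTGG), the TATA motif (TATAA or TTATA) and the octamer (ATTTGCAT or ATGCAAAT), each searched on both strands. The first window is chr13:22035571-22035870 on the plus strand and covers all but 2 bases between Hist1h2ah and Hist1h2bk. The second is chr3:96220831-96221130 on the minus strand and covers the whole stretch between Hist2h2ac and Hist2h2be.
Hist1h2bk: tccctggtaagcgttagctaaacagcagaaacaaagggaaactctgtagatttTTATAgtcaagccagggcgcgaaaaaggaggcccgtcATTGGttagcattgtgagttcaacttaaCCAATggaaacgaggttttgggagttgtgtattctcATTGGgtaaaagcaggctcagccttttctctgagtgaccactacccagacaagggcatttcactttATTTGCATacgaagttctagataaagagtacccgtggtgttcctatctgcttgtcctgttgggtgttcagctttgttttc
Hist2h2ac: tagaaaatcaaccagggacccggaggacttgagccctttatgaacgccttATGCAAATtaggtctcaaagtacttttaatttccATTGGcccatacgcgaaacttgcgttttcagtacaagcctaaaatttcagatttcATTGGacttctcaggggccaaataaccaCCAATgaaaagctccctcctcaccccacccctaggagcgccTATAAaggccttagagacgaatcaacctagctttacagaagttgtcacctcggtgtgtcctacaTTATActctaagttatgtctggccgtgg

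Both windows held the CCAAT box 3 times and the octamer once. Of the 54 members, 49 matched a RefSeq promoter. The CCAAT box was found in 41 of the 49 (83.7%), against 37.9% of 27025 promoters of the same length. It was in every H1, H2A, H2B and H3 window and in 3 of 11 H4 windows. The TATA motif was found in 40 of 49 (81.6%) against 25.5% of all promoters, and the octamer in 11 of 49 (22.4%) against 1.75%. The octamer matches were in 7 of 14 H2A and 4 of 11 H2B windows, with none in the H1, H3 or H4 windows, and some are the same stretch read from either partner. A match is a stretch of letters, not a measured binding site.

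Many members are near-identical in sequence, so single genes are uncertain where reads could be split among copies. The median member had 36.4% of its 75-base stretches in another gene, and 19 members had over 50%. In the 10 members with under 10% shared, among them Hist1h1a, Hist1h1b, Hist1h4d, Hist2h4 and Hist4h4, the median log2 fold change was 0.58 and 8 were higher in stimulated cells in both kinds of title. Hist2h4 was at 251 and 60.1 CPM in controls and at 284 and 185 CPM in stimulated libraries. Hist4h4, which lies by itself on chromosome 6, was at 680 and 108 CPM against 779 and 240. Both had the split by title seen in the clustered genes.

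Of 39 listed genes of histone mRNA processing, 37 were tested and 12 were called higher and 2 lower. Over all genes tested 17.5% were called higher and 18.3% lower. The median log2 fold change of the list was 0.42. Slbp, the stem-loop binding protein, was at 385 and 491 CPM in controls and 329 and 358 CPM in stimulated libraries, lower in both but not called (-0.35 ± 0.17, edgeR adjusted p = 0.152). Npat, the coactivator of histone gene transcription, was at 99.3 and 110 CPM against 78.8 and 83.8 (-0.37 ± 0.14, adjusted p = 0.0758). Snrpe, a protein of the Sm ring, rose from 79.2 and 58.7 CPM to 149 and 128. Mif4gd, which links Slbp to translation, fell from 252 and 221 CPM to 153 and 126. Snrpb, another Sm protein, was at 367 and 339 CPM against 485 and 462 and was not called (adjusted p = 0.0559). Unlike many of the members, none of the 37 had a rep1 library higher by at least 1 on the log2 scale in both groups. Over all genes tested 0.961% did, so finding none in this list is near that share.

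Of 34 tested histone chaperone and chromatin assembly genes, 10 were called higher and 2 lower, against 17.5% and 18.3% of all genes tested. Their median was 0.25. Ipo4, an importin that carries histones into the nucleus, rose by 1.87 ± 0.15 on the log2 scale, and Npm1 and Npm3, nucleophosmin family chaperones, by 1.79 ± 0.15 and 1.07 ± 0.15 (edgeR adjusted p = 0.000473, 0.000475 and 0.00266). Their libraries within a group lay close: Npm1 was at 185 and 202 CPM in controls and 686 and 651 CPM in stimulated libraries. Ssrp1, a subunit of the FACT complex, was at 465 and 466 CPM against 642 and 581 and was not called (adjusted p = 0.0762). Hells, a chromatin remodeller, was at 452 and 592 CPM against 378 and 462, with the groups overlapping and no call.

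Of 9 tested histone variant genes that are not members, 1 was called higher and 3 lower, against 17.5% and 18.3% of all genes tested. H2afv (H2A.Z.2) fell from 215 and 182 CPM to 83.5 and 108, H2afy (macroH2A1) from 449 and 493 to 211 and 248, and H1f0 (H1.0) from 335 and 432 to 176 and 238, with edgeR adjusted p of 0.00507, 0.0032 and 0.0166. In all 3 the groups did not overlap. H3f3a and H3f3b, the H3.3 genes, were at 80.2 and 70.8 CPM against 100 and 84.5, and at 297 and 259 against 436 and 346, neither called. H2afz, encoding H2A.Z, was at 51.4 and 58.3 CPM against 61.8 and 83.1, also not called. H2afx, given above with the stem-loop genes, was the variant whose libraries split as the members did: its rep1 library was higher by 1.55 in controls and 1.12 in stimulated cells on the log2 scale, and its log2 fold change of 0.98 ± 0.73 was not called (adjusted p = 0.376).

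Counts of called cell-cycle genes are to be read against the 17.5% of all genes called higher and 18.3% called lower. Of 30 genes of histone transcription and S phase entry, 6 were called higher and 6 lower, with a median of 0.14. Ccnd2 (cyclin D2) rose from 1.26 and 0.546 CPM to 10.0 and 6.34 and Cdk6 from 26.5 and 31.4 to 64.4 and 71.9, and Cdkn1b, encoding the inhibitor p27, fell from 332 and 390 to 160 and 179. Not called were Cdk4, at 278 and 280 CPM in controls and 363 and 367 CPM in stimulated libraries, and Yy1, a transcription factor, at 177 and 311 against 162 and 273. Of 50 G1/S and DNA replication genes, 7 were called higher and 6 lower, with a median of -0.07. Tyms (thymidylate synthase) rose by 0.99 ± 0.14 on the log2 scale, while Lig1 (DNA ligase 1) fell by 1.07 ± 0.14 and Mcm6, a subunit of the replicative helicase, by 0.77 ± 0.15. Mcm5, of the same helicase, was at 798 and 821 CPM against 648 and 596, and Rpa1, of the single-strand binding complex, at 782 and 824 against 667 and 606, neither called. Of 30 G2/M genes, 6 were called higher and 1 lower, with a median of 0.36. Ube2c and Bub1b, of mitotic exit and the spindle checkpoint, rose by 0.86 ± 0.16 and 0.70 ± 0.18, and Top2a by 0.70 ± 0.17. Mki67, a proliferation marker, was at 519 and 582 CPM in controls and 392 and 609 CPM in stimulated libraries, with the groups overlapping. Kif11, a spindle motor, was at 432 and 498 CPM against 513 and 517 and was not called.

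The median change of members depended on single libraries. Without the rep1 control the members' median log2 fold change was 1.89, and without the unnumbered control it was 0.06. Leaving out the rep1 stimulated library gave a median of 0.03, and leaving out the unnumbered stimulated library 1.15. Over all genes tested the medians were, in the same order, 0.003, -0.009, -0.029 and -0.035. Under other scalings the median stayed between 0.52 and 0.65, with 51 of 54 members above 0 in each.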

How the data were processed

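Count, CPM and RPKM were deposited per gene in each table, per the file headers. The deposited counts are whole numbers and were the values used. CPM and RPKM as deposited by the authors did not enter the tests. The submitters' processing notes name STAR, Subread and featureCounts. Their versions, the genome build, the annotation and the strand setting were not given in the sources used here. Overlapping and antisense genes are therefore uncertain. Ribosomal RNA was depleted from total RNA, per the labels' protocols. Depth was 23047723 to 29078765 counts per library.

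Symbols came from GENCODE M21, in which 40340 of 41388 identifiers were found, and 36 members had the same start and end there. Stimulated libraries were compared with controls in edgeR 4.0.16 (R 4.3.3, limma 3.58.1): TMM scaling, filterByExpr, robust quasi-likelihood test, treatment as the only term, Benjamini-Hochberg adjustment over the 13838 genes tested, threshold 0.05. The common biological coefficient of variation was 18.4%. CPM given per library carry TMM scaling, and differences between single libraries use log2 CPM with a prior count of 2. Shares carry 95% Wilson intervals. Shared stretches of 75 bases and the stem-loop motif were searched in M21 transcripts, and promoter windows are RefSeq's (GRCm38.p6).

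Members and gene lists were chosen with earlier results of these data known. Named members were, in each class, the 3 highest per kilobase, the 2 lowest and 2 highest log2 fold changes, and each called member; in each list of histone-related or cell-cycle genes, the 3 called genes with the smallest adjusted p, the 2 most abundant not called, and Slbp, Npat, H2afx, H2afz, H3f3a and H3f3b. A gene this rule names is not reported here. Trim17, Zfp184, Rn7sk, Rpph1, Rmrp, Malat1, Lum, Hist1h2ag, Hist1h4b, Hist2h4 and Hist4h4 were named after their values were seen. Alternatives were other scalings and filters, DESeq2 1.42.0, limma-voom, a block by kind of title, each library left out, other count minimums, another threshold and other denominators. Shares within 1 kind of title were added after seeing the data.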

Additional observations from a re-analysis of the deposited data

How the results depend on the processing

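Counts of called members varied with the test. Of 13838 genes tested, 2417 were called higher in the edgeR fit given above and 2511 with DESeq2 size factors. Upper quartile scaling gave 2160 and total count scaling 1934. Without robust estimation 2376 were called higher, with limma-voom 2404 and with DESeq2 2623. A filter of 1 CPM gave 2321 of 12112, and no low-count filter 2983 of 25548. Called lower were 2533 in the fit above, 2701 with upper quartile and 2794 with total count scaling. Members called higher numbered 2 with DESeq2 size factors, upper quartile scaling, total count scaling or a filter of 1 CPM, 3 without robust estimation, 5 with limma-voom, 6 without the low-count filter, 6 with DESeq2, and 0 at an adjusted p under 0.01, where 0 were called lower. Histone variants called higher numbered 0 with upper quartile scaling, total count scaling, 1 CPM or no robust estimation, 2 with DESeq2 and 3 without the filter. With total count scaling 7 mRNA processing genes, 2 G1/S genes and 0 variants were called higher, and 11 G1/S and 2 G2/M genes lower; with upper quartile scaling 4 G1/S genes were called higher and 10 lower. G2/M genes called higher numbered 10 with DESeq2 and 10 without the filter. Hist1h4h changed sign with limma-voom (0.18). The cause of these differences was not tested.

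Leaving out 1 library at a time gave 1593 to 2001 genes called higher and 1665 to 2035 lower, and 1 to 15 members higher and 0 to 1 lower. Called higher and lower were 5 to 10 and 0 to 2 mRNA processing genes, 6 to 9 and 1 chaperone genes, 0 to 1 and 2 to 3 variants, 3 to 5 and 2 to 6 S phase entry genes, 2 to 3 and 2 to 6 G1/S genes, and 1 to 6 and 0 G2/M genes. The log2 ratio of the summed histone shares, 0.59 with all libraries, ranged from -0.007 (without the unnumbered control) to 1.61 (without the rep1 control). With 1 library left out, log2 values of either sign were seen, from lowest to highest, for Hist1h2af (-0.24 to 0.60), Hist1h2ak (-0.22 to 2.32), Hist1h2bb (-0.42 to 1.82), Hist1h2bl (-0.40 to 2.07), Hist1h3e (-0.22 to 2.06), Hist1h4d (-0.26 to 1.94), Hist1h4f (-0.55 to 1.73), Hist1h4h (-1.17 to 1.71), Hist1h4k (-0.42 to 1.91), Hist2h3c2 (-0.12 to 1.04), Mki67 (-0.46 to 0.15), Yy1 (-0.56 to 0.30). With 1 library left in a group, it is assumed to vary like the others.

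The titles share a number only in rep1 and state no pairing. Deviations from the group mean in libraries of the same title correlated at 0.49 over all genes, 0.47 without the members and 0.80 over members, values that share libraries and depth. With the kind of title as a replicate block, 44 members were called higher and 1 lower, with a median of 0.76, while 28.8% and 28.9% of all genes were, 3986 and 4000 genes; this fit leaves 1 residual degree of freedom. Called higher and lower were 25 and 6 mRNA processing, 17 and 7 chaperone, 5 and 3 variant, 10 and 9 S phase entry, 9 and 14 G1/S and 19 and 2 G2/M genes, and Hist1h4h had a value of 0.17.

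Precision is limited by 2 libraries a group, by their split in histone counts, and by sequence shared among members.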

Other observations

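The pseudogene Hist1h2al, annotated as processed and so no member, had 6499 and 1709 counts in the rep1 and unnumbered controls and 8024 and 3705 in the stimulated libraries. Its counts split by title as those of the core histone members did, and its log2 fold change of 0.81 ± 0.84 (SE) was not called (edgeR adjusted p = 0.526). The other pseudogenes with a histone cluster symbol were low: Hist3h2bb-ps had 17 and 6 counts in controls and 44 and 11 in stimulated libraries, and Hist1h2aj had 5 counts or fewer in each library.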
